A study of Mus musculus with 6 samples.

Results

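The genes described here are 10 genes of natural killer (NK) cells and of cell killing, picked by symbol from the 31253 features of a mouse bone marrow single-cell dataset: Gzma, Prf1, Nkg7, Ncr1, Klrb1b, Klrb1c, Klrd1, Klrk1, Ifng and Tbx21. Marrow cells of 3 samples labelled as Txnip knockout (Txnip-KO) were compared with marrow cells of 3 wild-type (WT) samples. The product of Txnip is an arrestin-like protein that restrains thioredoxin and the uptake of glucose. The cells had been enriched and sorted, and the labels name neither the sorted population nor the strain, sex or age of the mice, nor how the Txnip allele was made. Since it is also not stated whether each sample is a mouse of its own, the p-values speak for the spread among these 6 samples, and that spread may be technical.

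NK cells kill infected or transformed cells without prior priming. They carry granules with the pore-forming protein perforin (Prf1) and with proteases such as granzyme A (Gzma), and Nkg7 is a membrane protein of these granules. Whether the granules are released depends on the balance of activating receptors, among them NKp46 (Ncr1), NKG2D (Klrk1) and the NK1.1 antigen (Klrb1c), against inhibitory receptors, among them NKR-P1B (Klrb1b). CD94 (Klrd1) pairs with NKG2 chains that can inhibit or activate. Interferon gamma (Ifng) is the main cytokine that NK cells secrete, and T-bet (Tbx21) is a transcription factor needed for their maturation.

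The 6 samples held 48277 barcodes and between 61368478 and 80876483 unique molecular identifiers (UMIs) each, and between 6023 and 7827 cells per sample were kept. Txnip had 75, 45 and 2 UMIs in Txnip-KO NK cells, against 1592, 1049 and 1861 UMIs in WT NK cells. Pairs of samples shared between 9 and 23 barcodes. NK cells were gated by at least 4 of 12 NK markers, none of them among the 10 genes, unless they also had Cd3e with at least 3 of 6 T cell markers. The gate gave 7351 cells, 4113 in Txnip-KO and 3238 in WT samples. All 12 markers were detected in the gate, Il2rb in 89.9% of its cells and Eomes in 61.8%. The summed level of the 12 markers was between 6242 and 6705 CPM (a gene's UMIs scaled to a fixed total of UMIs per sample and type) in Txnip-KO and between 6354 and 6546 CPM in WT samples. NK cells with at least 10 Gzma UMIs per 10000 UMIs were called Gzma-high (5706 cells) and the others Gzma-low (1645 cells). Cells with Cd3e and at least 4 of 6 T cell markers were called T cells (394 cells), cells with under 4 NK markers, at least 4 of 7 innate lymphoid markers and at least 2 of Gata3, Icos and Cxcr6 innate lymphoid cells (561 cells), and cells with Rora and Tcf7 among at least 6 of 8 markers innate lymphoid progenitors (153 cells). The median depth of NK cells was 3469 ± 502 UMIs in Txnip-KO and 4487 ± 379 UMIs in WT samples (SD, n = 3 each).

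Each of the 10 genes lies on an autosome, 4 of them in the NK receptor region of chromosome 6 (GRCm38): Klrb1c at chr6:128778485-128789215, Klrb1b at chr6:128813706-128826331, Klrd1 at chr6:129591782-129598775 and Klrk1 at chr6:129610323-129623864. Ncr1 (chr7:4337724-4345164) and Nkg7 (chr7:43437073-43438249) lie on chromosome 7, Prf1 (chr10:61297833-61304680) and Ifng (chr10:118441046-118445892) on chromosome 10, Tbx21 (chr11:97098071-97115331) on chromosome 11 and Gzma (chr13:113093825-113100981) on chromosome 13. All are annotated as protein-coding. Since the libraries read the 3' end of transcripts, the last 500 bases of each gene's annotated transcripts were searched for stretches of 60 bases that also occur in transcripts of other genes. Klrb1b shared 20.4% of these stretches, with Klrb1a, Klrb1c and Gm44511, and Klrb1c shared 16.2%. The values of Klrb1b and Klrb1c are therefore uncertain where a read fits several of these genes. Ifng shared 13.2%, with Gm49751, and the other 7 genes shared none.

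Promoters from RefSeq (GRCm38.p6, 250 bases before to 50 after the start) were found for 9 of the 10 genes, Klrd1 being the exception. Those of 4 genes are shown because their levels set the pattern of the results: Klrb1b, the receptor gene that was higher in Txnip-KO NK cells, its neighbour Klrb1c, which did not pass the test, and Nkg7 and Ncr1, which were lower. Letters are 5' to 3' on the gene's strand, and capitals mark matches, on either strand, to a T-box motif (GGTGTGA), a RUNX motif (TGTGGTT) or an ETS motif (CAGGAAG), none of which overlap here. The windows are chr6:128826266-128826565 (minus strand) for Klrb1b, chr6:128788592-128788891 (minus strand) for Klrb1c, chr7:43436888-43437187 (plus strand) for Nkg7 and chr7:4337474-4337773 (plus strand) for Ncr1.
Klrb1b: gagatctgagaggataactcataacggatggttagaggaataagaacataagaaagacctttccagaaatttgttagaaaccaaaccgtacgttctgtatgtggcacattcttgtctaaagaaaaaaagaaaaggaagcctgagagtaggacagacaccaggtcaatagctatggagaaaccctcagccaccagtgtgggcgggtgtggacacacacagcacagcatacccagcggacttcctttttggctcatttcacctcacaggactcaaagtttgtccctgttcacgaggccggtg
Klrb1c: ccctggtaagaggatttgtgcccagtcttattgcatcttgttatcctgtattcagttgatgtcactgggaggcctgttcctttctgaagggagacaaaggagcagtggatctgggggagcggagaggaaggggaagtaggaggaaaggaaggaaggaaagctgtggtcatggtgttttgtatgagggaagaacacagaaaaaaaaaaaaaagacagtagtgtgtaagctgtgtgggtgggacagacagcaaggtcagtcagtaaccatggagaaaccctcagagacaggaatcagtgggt
Nkg7: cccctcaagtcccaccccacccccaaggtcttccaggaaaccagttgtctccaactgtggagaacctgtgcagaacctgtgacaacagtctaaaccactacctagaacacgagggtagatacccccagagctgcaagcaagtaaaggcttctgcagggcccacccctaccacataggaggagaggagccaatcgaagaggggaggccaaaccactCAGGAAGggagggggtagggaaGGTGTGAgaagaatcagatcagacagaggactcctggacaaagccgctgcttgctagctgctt
Ncr1: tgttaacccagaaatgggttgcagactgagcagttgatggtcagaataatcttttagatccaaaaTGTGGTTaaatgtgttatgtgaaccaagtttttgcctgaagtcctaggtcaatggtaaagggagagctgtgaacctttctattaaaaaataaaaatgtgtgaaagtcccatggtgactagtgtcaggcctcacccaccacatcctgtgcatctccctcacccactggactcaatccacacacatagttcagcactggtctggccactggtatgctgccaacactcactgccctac
Of the 9 promoters, 1 held the T-box motif (Nkg7), 3 the RUNX motif (Gzma, Ncr1 and Klrk1) and 3 the ETS motif (Prf1, Nkg7 and Tbx21). Over 32851 promoters of the same length the shares were 3.98%, 5.27% and 13.3%. The windows of Klrb1b, Klrb1c and Ifng held none of these letters, which is a description of the windows alone.

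The 10 genes were first placed across the gated types, as a description. For each gene except Klrb1b, the mean level over the 6 samples was highest in Gzma-high NK cells. Klrb1b was highest in Gzma-low NK cells, at 197 ± 77.5 CPM, followed by Gzma-high NK cells at 117 ± 67.5 CPM (SD, n = 6 each), and the sample ranges of these neighbours overlapped. Levels are given per gene only, since counts of 3' ends are not compared between genes here.

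Prf1 and Nkg7 stepped down between Gzma-high NK cells, Gzma-low NK cells and T cells. Prf1 averaged 582 ± 65.2 CPM in Gzma-high NK cells, 137 ± 35.5 CPM in Gzma-low NK cells and 53.4 ± 19.3 CPM in T cells, with no overlap between neighbours over the 6 samples. Nkg7 averaged 2956 ± 507 CPM in Gzma-high NK cells, 1608 ± 406 CPM in Gzma-low NK cells and 1367 ± 387 CPM in T cells, where the last pair overlapped. Of the UMIs of Nkg7, 44.8% lay outside the gates described here, and it stood at 462 ± 135 CPM in innate lymphoid progenitors, 340 CPM in basophils or mast cells, 188 CPM in cells with stem cell markers and 80.2 CPM in B-lineage cells. Gzma, on which the NK cells were split, had 97.2% of its UMIs in Gzma-high NK cells. In innate lymphoid cells Gzma stood at 5.35 CPM and Prf1 at 5.20 CPM, close to the 3.33 CPM and 3.81 CPM of B-lineage cells, which should lack both.

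The means of the receptor genes Ncr1, Klrb1c and Klrk1 lay closer together in the NK subsets than those of Prf1 and Nkg7. Ncr1 averaged 790 ± 177 CPM in Gzma-high and 770 ± 206 CPM in Gzma-low NK cells, 189 ± 58.9 CPM in T cells, and 14.3 ± 12.3 CPM in innate lymphoid cells. The NK subsets overlapped in Ncr1, whereas T cells lay below both. Klrb1c averaged 939 ± 141 CPM in Gzma-high NK cells, 721 ± 86.8 CPM in Gzma-low NK cells and 433 ± 101 CPM in T cells, and Klrk1 averaged 1693 ± 165 CPM, 1399 ± 144 CPM and 829 ± 198 CPM in the same order. Klrd1 averaged 1583 ± 214 CPM, 1076 ± 156 CPM and 758 ± 185 CPM, and it also stood at 298 CPM in plasmacytoid dendritic cells. Among T cells, 334 of 394 carried at least 4 NK markers, and in these Ncr1 stood at 200 CPM, while the other 60 T cells had 0 Ncr1 UMIs, which allows a share of up to 5% of cells with a UMI. The T cell gate held mostly cells with NK markers, and 42.1% of its cells had a UMI of Trdc, a gamma-delta T cell receptor gene.

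The cytokine gene and the transcription factor gene followed the same order. Ifng averaged 52.8 ± 8.55 CPM in Gzma-high NK cells, 24.5 ± 12.2 CPM in Gzma-low NK cells and 15.5 ± 10.1 CPM in T cells, with neighbours overlapping, and had 3 UMIs in innate lymphoid cells and 0 in progenitors. Tbx21 averaged 97.7 ± 11.9 CPM, 79.2 ± 10.4 CPM and 56.5 ± 8.03 CPM in the same order, with the NK subsets overlapping and T cells just below both. Across the 30 pairs of sample and type, the genes with the profile most like the mean of the 10 genes were Tmem37 (r = 0.99), the Ly49 receptor gene Klra3 (0.979), the death ligand gene Fasl (0.977) and Klra9 (0.976), of 7669 genes ranked by Pearson's r of log2(CPM + 10). Klrb1b was the least like the mean of the other genes (r = 0.58), and Ncr1 the most (0.974). The points share libraries and cell types, so these values describe the profiles.

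**Figure D1:**
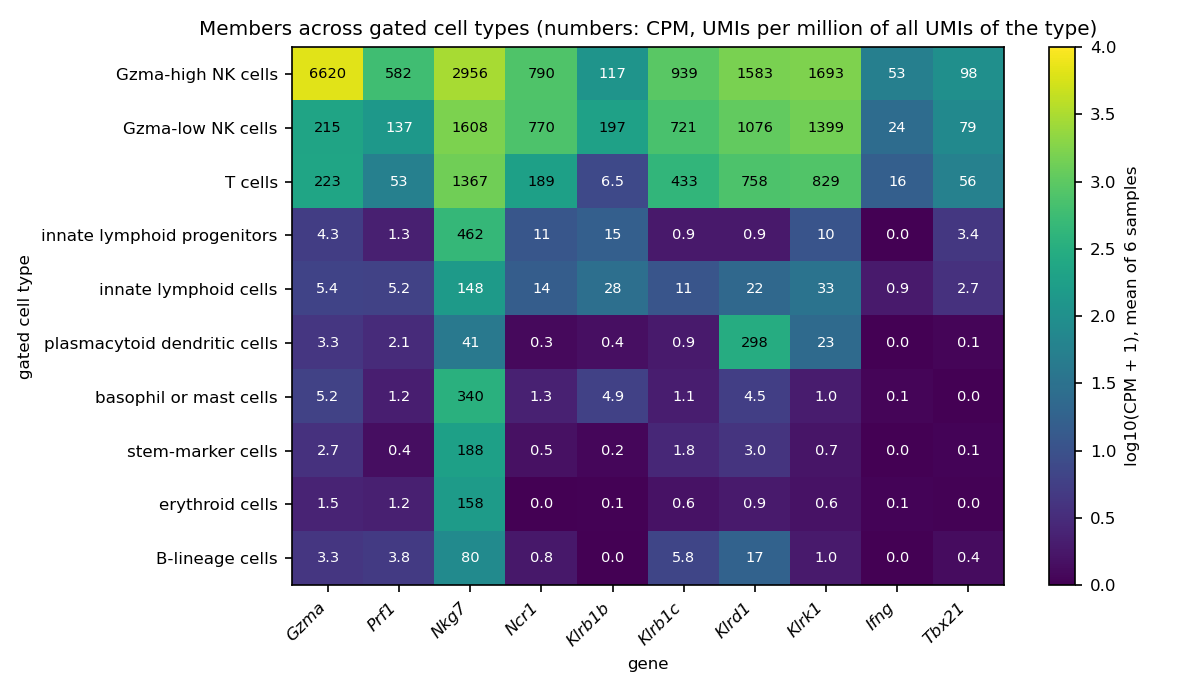
Mean level of each gene (columns) in each gated cell type (rows) over the 6 samples, as log10(CPM + 1) in colour with the CPM written in each field. The high values sit in the 2 NK rows and the T cell row, except Nkg7, which is spread over further types, and Klrd1 at 298 CPM in plasmacytoid dendritic cells. Klrb1b is another exception, with 6.51 CPM in T cells, 28.1 CPM in innate lymphoid cells and 15.2 CPM in innate lymphoid progenitors.

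Comparing Gzma-high with Gzma-low NK cells of the same sample shows how the other genes go with granzyme A. Of 9 genes tested, Gzma itself not being tested, 7 were higher in Gzma-high cells and 1, Klrb1b, was lower, at an adjusted p under 0.05 in edgeR's quasi-likelihood test with the sample as a block. Of all genes tested, 23.6% were called, 11.1% higher and 12.5% lower. Prf1 ran from 495 over a median of 601 to 649.5 TMM-scaled CPM in Gzma-high cells, and from 97.8 over 126 to 209 in Gzma-low cells (TMM being edgeR's scaling for library composition). The subsets did not overlap, and Prf1 was higher in Gzma-high cells in 6 of 6 samples, at a log2 ratio of 2.11 ± 0.11 (SE), with an adjusted p of 5.61e-12. Ifng (1.13 ± 0.14, adjusted p 3.81e-06) and Nkg7 (0.91 ± 0.05, adjusted p 7.57e-12) followed, also in 6 of 6 samples.

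The receptor genes moved less. Klrd1 was higher by 0.57 ± 0.04, Klrb1c by 0.39 ± 0.04, and Klrk1 by 0.29 ± 0.03 on the log2 scale, each in 6 of 6 samples, with adjusted p-values of 2.2e-09, 3.58e-07 and 1.18e-06. Tbx21 was higher by 0.31 ± 0.06 (adjusted p 0.00104), a call that was lost when the Gzma threshold was halved (0.17, adjusted p 0.103). Ncr1 differed by 0.06 ± 0.05 and did not pass (adjusted p 0.381), while without doublet removal it was called higher at 0.49 (adjusted p 2.18e-05). Klrb1b ran from 58.1 over a median of 97.4 to 186 TMM-scaled CPM in Gzma-high cells, and from 111 over 183 to 276 in Gzma-low cells. It was lower in Gzma-high cells in 6 of 6 samples although the ranges overlapped, with a log2 ratio of -0.78 ± 0.11 (adjusted p 1.69e-05), which was -0.33 without doublet removal (adjusted p 0.0274).

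**Figure D2:**
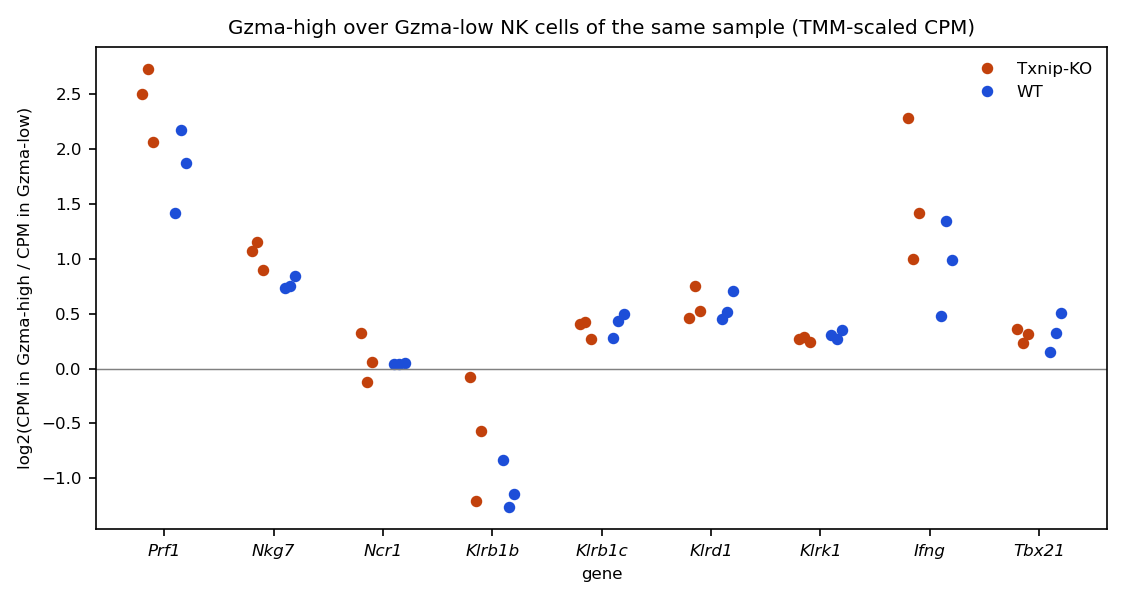
Log2 ratio of the TMM-scaled CPM in Gzma-high over Gzma-low NK cells of the same sample (y axis) for 9 genes (x axis), 1 point per sample, Txnip-KO left and WT right. Prf1, Nkg7 and Ifng lie above 0 and Klrb1b below 0 in 6 of 6 samples, and Ncr1 lies around 0.

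Related genes were read from the same comparison of the 2 subsets. Of 20 granule genes, 8 were higher and 2 lower in Gzma-high cells, against the 23.6% called over all genes: granzyme B (Gzmb, 3.08 ± 0.17 on the log2 scale) and its inhibitor relative Serpinb9b (3.92 ± 0.18) were higher and Lyst, a regulator of lysosome size, lower (-1.30 ± 0.08). Of 12 other lectin-like receptors tested, 7 were higher and 3 lower, and those higher included Klrg1 (3.91 ± 0.21), a receptor of mature NK cells, and Klra9 (1.93 ± 0.11). Of 17 transcription factors tested, 7 were higher and 2 lower. Zeb2 (1.92 ± 0.07), needed for late NK maturation, and Klf2 (1.28 ± 0.05) were higher, and Tcf7 (-0.98 ± 0.09), a factor of early lymphoid cells, was lower. Of 19 maturation and traffic genes, 8 were higher, among them Itgam (2.66 ± 0.15) and the exit receptor S1pr5 (2.52 ± 0.14), and 7 lower, among them Ly6a (-3.48 ± 0.19). Of 17 adaptors and signalling genes, 11 were higher and 0 lower, among them Cd247 (0.77 ± 0.06), Fcer1g (0.63 ± 0.04) and Tyrobp (0.55 ± 0.04). Of 12 death ligands, cytokines and chemokines, 4 were higher, including Fasl (0.89 ± 0.06), and 8 lower, including Ltb (-1.49 ± 0.08) and the death ligand gene Tnfsf10 (-1.70 ± 0.15). Of 12 immunoglobulin-like and SLAM receptors tested, 4 were higher, including Cd2 (0.51 ± 0.05), and 5 lower, including the activating receptor gene Cd226 (-1.32 ± 0.08). Of 17 genes of cytokine receptors and their signalling, 7 were higher, including Il12rb2 (0.80 ± 0.10), a chain of the interleukin 12 receptor, and 5 lower, including Il21r (-1.11 ± 0.15). Of 10 genes of dividing cells, 0 were higher and 7 lower in Gzma-high cells. Mki67 had -1.45 ± 0.19 and was lower in 4 of 6 samples (not called by DESeq2's Wald test, -1.09, adjusted p 0.0581, or with the Gzma threshold halved, -0.63, 0.0890). Top2a had -1.31 ± 0.16 and was lower in 5 of 6 samples. The 7 innate lymphoid markers summed to between 105 and 158 CPM in Gzma-high cells and between 407 and 1024 CPM in Gzma-low cells over the 6 samples, and their part in these differences was not tested.

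Txnip-KO samples had a smaller share of Gzma-high cells among NK cells. The share was 75.6%, 69.3% and 75.7% in Txnip-KO samples, against 81.5%, 81.6% and 84.0% in WT samples. The groups did not overlap, and the difference was -8.83 percentage points (two-sided exact permutation test, p = 0.1, the smallest p that 3 against 3 samples allow). With each cell thinned to 1000 UMIs it was -8.28 points. NK cells with no Gzma UMI made up 17.3 ± 5.48% in Txnip-KO and 10.5 ± 1.32% in WT samples (SD, n = 3 each), whereas the median Gzma level within Gzma-high cells was 62.2 ± 14.2 UMIs per 10000 in Txnip-KO and 60.7 ± 6.41 in WT samples. The number of Gzma-low NK cells, 1075 in Txnip-KO and 570 in WT samples, was higher as a share of all kept cells (log2 fold change 0.79 ± 0.23, edgeR adjusted p 0.0277 over 5 types). That call was lost without Txnip-KO 1 (0.86, adjusted p 0.0751), Txnip-KO 3 (0.66, 0.0859), WT 2 (0.69, 0.117) or WT 3 (0.75, 0.225), and without doublet removal (0.72, 0.0823). The number of Gzma-high NK cells did not pass (0.08 ± 0.28, adjusted p 0.791). In all, 289 NK cells had a Gzma level between 0.8 and 1.25 times that of the split.

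**Figure D3:**
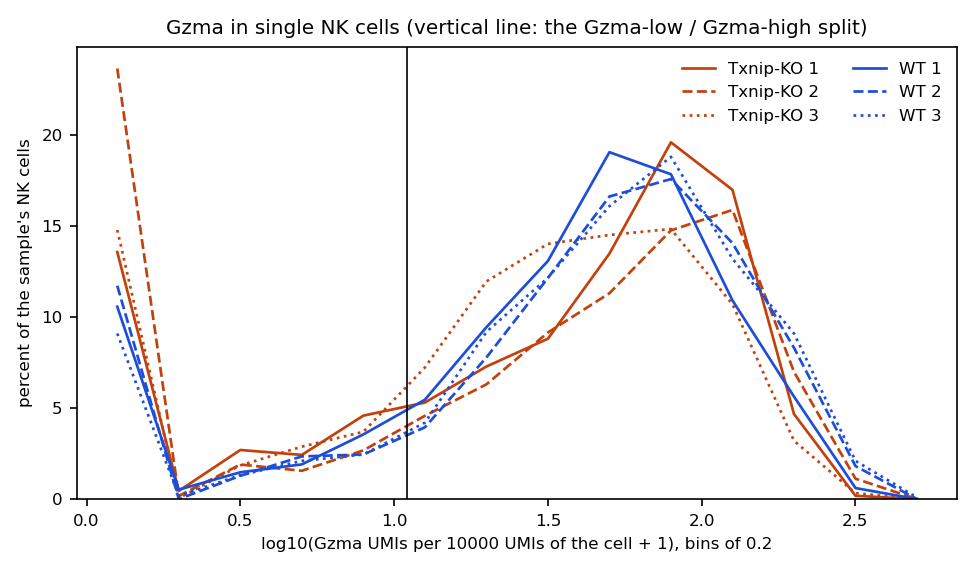
Distribution of Gzma in single NK cells: log10 of Gzma UMIs per 10000 UMIs of the cell plus 1 (x axis) against the percent of the sample's NK cells in each bin (y axis), 1 line per sample. The vertical line is the split at 10 per 10000, with 69.3% to 75.7% of Txnip-KO and 81.5% to 84.0% of WT NK cells on its right.

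The main comparison was Txnip-KO over WT within NK cells. Klrb1b rose, and Ncr1, Ifng, Nkg7 and Gzma fell: 5 of 10 genes were called, 1 higher and 4 lower, where 26.3% of all 10299 genes tested were called, 12.7% (1309) higher and 13.6% (1399) lower. The median log2 fold change was -0.20 over the 10 genes and 0.02 over all genes. In 6 of the 10 genes the samples of the groups did not overlap, as in 42% of all genes tested. With counts scaled by total UMIs alone, a setting chosen after seeing the data, 2598 genes were higher and 682 lower and the median of all genes was 0.19. The 5 called genes kept their calls and directions there and in the other alternatives, 16 in all. In sums over the cells of a sample, fewer cells with a transcript and less of it per cell cannot be told apart. Of the 10 genes, shares of NK cells by UMI are given for Gzma, and for Klrb1b in Gzma-high cells.

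Klrb1b had the largest log2 fold change of the 10 genes in NK cells. It had 189, 178 and 213 TMM-scaled CPM in Txnip-KO NK cells, against 73.7, 76.7 and 96.1 in WT NK cells. Each Txnip-KO sample was above each WT sample, and the log2 difference was 1.23 ± 0.11 (SE), with an edgeR adjusted p of 2.79e-05. The rise was present in both subsets. In Gzma-high cells Klrb1b had 187, 118 and 186 TMM-scaled CPM in Txnip-KO samples, against 62.0, 57.6 and 75.4 in WT samples, a log2 fold change of 1.33 ± 0.14 (adjusted p 4.8e-06). In Gzma-low cells it had 199, 276 and 282 in Txnip-KO samples, against 112, 140.3 and 170.0 in WT samples, a log2 fold change of 0.85 ± 0.16 (adjusted p 0.00207). Neither subset showed overlap between the groups, and Txnip-KO 2 was the lowest Txnip-KO sample in Gzma-high cells.

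The share of Gzma-high cells with a Klrb1b UMI, with cells thinned to 1000 UMIs, was 14.9 ± 2.96% in Txnip-KO and 6.58 ± 1.64% in WT samples (SD, n = 3 each). Unthinned it was 32.9 ± 7.36% in Txnip-KO samples, at a median depth of 3150.2 UMIs, and 18.5 ± 2.57% in WT samples, at 4271 UMIs. B-lineage cells, which should lack the gene, had 0 Klrb1b UMIs in 400 Txnip-KO cells (median depth 3189.7 UMIs) and in 634 WT cells (7301 UMIs), which allows shares of up to 0.75% in Txnip-KO and 0.473% in WT samples. These limits cover counting error only. Other types outside the lymphoid gates did hold Klrb1b UMIs over the 6 samples. There were 35 in basophils or mast cells (4.89 CPM), 10 in cells with stem cell markers, 6 in plasmacytoid dendritic cells and 2 in erythroid cells. Of the paralogs that share 3' sequence, Klrb1a was lower in Gzma-high cells (-0.38 ± 0.10, adjusted p 0.0074) and Klrb1c did not pass (-0.10 ± 0.12, adjusted p 0.578). The part of shared reads in these values was not tested. Clec2d, which encodes the ligand of NKR-P1B and was named after its values were seen, had 289, 304 and 300 TMM-scaled CPM in Txnip-KO NK cells, against 308, 337 and 339 in WT NK cells (-0.14 ± 0.08, adjusted p 0.223).

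Among the activating receptors, Ncr1 fell. It had 538, 764 and 504 TMM-scaled CPM in Txnip-KO NK cells, against 974, 983 and 1026 in WT NK cells. The WT samples lay close together, Txnip-KO 2 stood above the other Txnip-KO samples, and the groups did not overlap (log2 fold change -0.72 ± 0.13, adjusted p 0.00151). The log2 fold change was close in both subsets, in Gzma-high cells (-0.71 ± 0.11, adjusted p 0.000186) and in Gzma-low cells (-0.72 ± 0.15, adjusted p 0.00572). Klrb1c had 955, 904 and 639 TMM-scaled CPM in Txnip-KO NK cells, against 910.5, 929 and 942 in WT NK cells, with Txnip-KO 3 below the rest (-0.16 ± 0.12, adjusted p 0.368). Klrk1 (0.04 ± 0.08, adjusted p 0.752) and Klrd1 (0.03 ± 0.10, adjusted p 0.85) did not pass either, and their groups overlapped, though Klrk1 was called higher with total-UMI scaling (0.21, adjusted p 0.0247), as was Klrd1 in Gzma-high cells (0.27, adjusted p 0.0223).

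Of the granule genes Gzma, Prf1 and Nkg7, Nkg7 had the largest decrease. It had 2044, 2231 and 1740 TMM-scaled CPM in Txnip-KO NK cells, against 2952, 3158 and 3562 in WT NK cells (-0.69 ± 0.10, adjusted p 0.000644). The groups did not overlap in all NK cells, nor in Gzma-high cells, with 2464, 2857 and 2035 in Txnip-KO against 3234, 3478 and 3900 in WT samples (-0.53 ± 0.11, adjusted p 0.0017). In Gzma-low cells Nkg7 had 1180, 1305 and 1111 in Txnip-KO samples, against 1973, 2091 and 2211 in WT samples (-0.80 ± 0.09, adjusted p 2.18e-05). Gzma had 4373, 4385 and 3652 in Txnip-KO NK cells, against 4870, 5677 and 6209 in WT NK cells (-0.43 ± 0.10, adjusted p 0.00757). The subsets were cut on the Gzma level of each cell, so within them its log2 fold change, -0.19 in Gzma-high and -0.36 in Gzma-low cells, is a description with no test.

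Prf1, the perforin gene, fell in Gzma-low cells. There it had 108, 99.0 and 121 TMM-scaled CPM in Txnip-KO samples, against 211, 135 and 164 in WT samples. WT 1 was the highest, and without it the call of -0.64 ± 0.15 (adjusted p 0.00881) became -0.46 (adjusted p 0.0784). It was also lost with the Gzma threshold doubled (-0.41, adjusted p 0.0696). In Gzma-high cells Prf1 had 610, 649 and 495 in Txnip-KO samples, against 557, 601 and 588 in WT samples, and the groups overlapped (0.00 ± 0.10, adjusted p 0.977). Over all NK cells it did not pass (-0.23 ± 0.09, adjusted p 0.068), though it did by DESeq2's Wald test (-0.24, adjusted p 0.0405) and with stricter cell filters (-0.28, adjusted p 0.0386).

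Ifng, the cytokine gene, fell in both subsets. In Gzma-high cells it had 44.2, 38.3 and 49.5 TMM-scaled CPM in Txnip-KO samples, against 66.4, 61.2 and 60.4 in WT samples (-0.50 ± 0.12, adjusted p 0.00364). In Gzma-low cells it had 9.13, 19.5 and 18.9 in Txnip-KO samples, against 48.2, 24.4 and 31.0 in WT samples (-1.14 ± 0.28, adjusted p 0.0134). Txnip-KO 1 was the lowest and WT 1 the highest sample there, and the call was lost without Txnip-KO 1 (-0.89, adjusted p 0.0584), without WT 1 (-0.81, adjusted p 0.138) and without doublet removal (-0.84, adjusted p 0.057). Over all NK cells the log2 fold change of Ifng was -0.71 ± 0.12 (adjusted p 0.0012). Tbx21 did not pass in all NK cells (-0.17 ± 0.11, adjusted p 0.3), but was called without Txnip-KO 3 (-0.32, adjusted p 0.0261), which held the highest of its values, 104 TMM-scaled CPM.

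**Figure D4:**
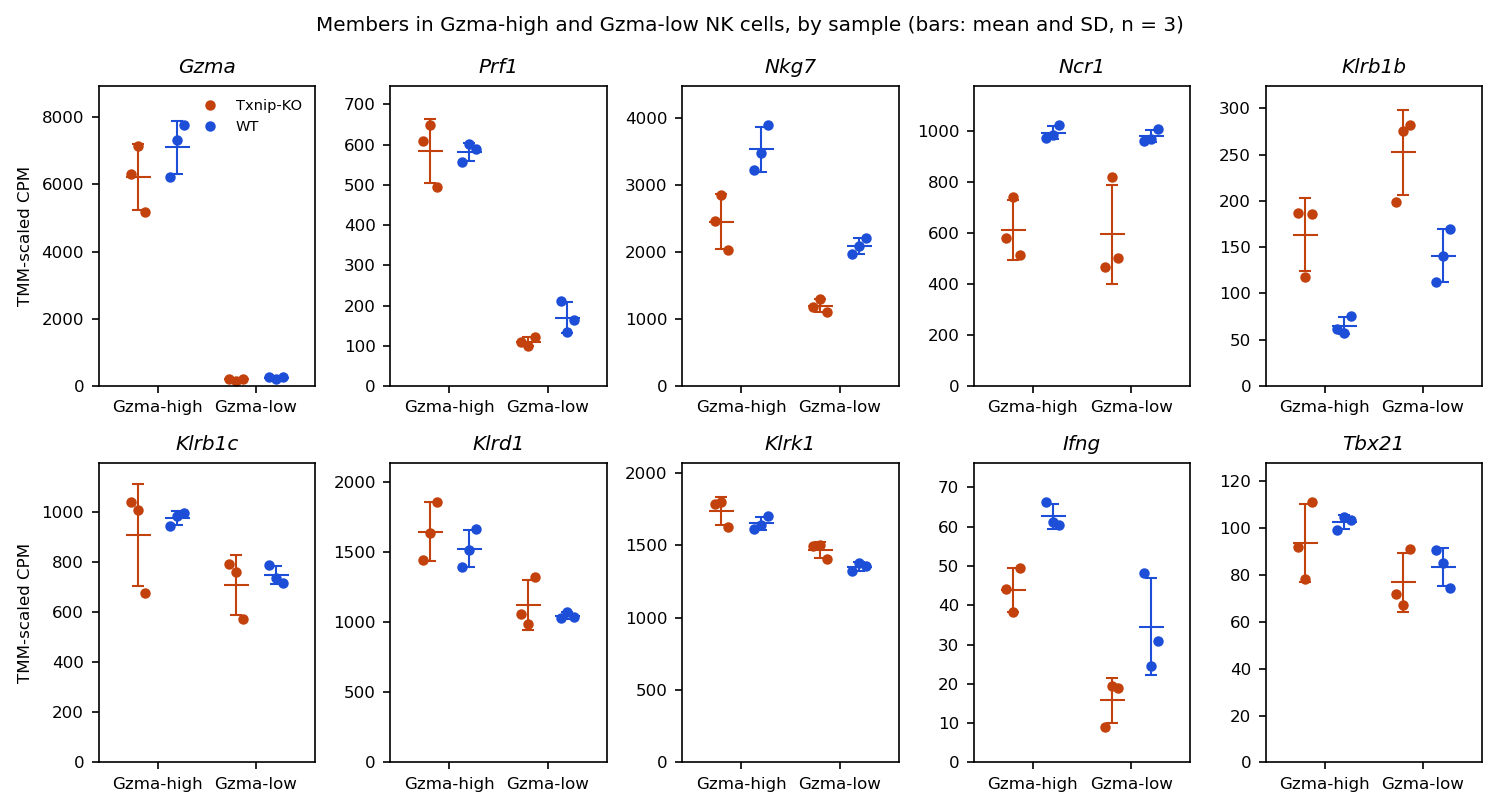
TMM-scaled CPM (y axis, from 0) of each of the 10 genes in Gzma-high and Gzma-low NK cells, 1 point per sample, Txnip-KO left of WT, with the mean and SD of 3 samples. Klrb1b lies higher and Nkg7, Ncr1 and Ifng lie lower in Txnip-KO samples in both subsets, without overlap.

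Counted by subset over the 9 genes other than Gzma, 4 were called in Gzma-high cells, 1 higher and 3 lower, where 26.2% of all genes were called, 12.9% higher and 13.3% lower. In Gzma-low cells 5 were called, 1 higher and 4 lower, where 12.9% were called, 5.54% higher and 7.33% lower. Over all genes, 1250 were higher and 1295 lower in Gzma-high cells, and 477 higher and 631 lower in Gzma-low cells. With total-UMI scaling 2338 were higher and 690 lower in Gzma-high cells (median of all genes 0.19), and 905 higher and 308 lower in Gzma-low cells (0.16). The difference of the genotype effect between the subsets was tested itself. By edgeR it was called for 0 of the 9 genes other than Gzma, where 0.242% of all genes were called, 0.111% higher and 0.131% lower. An unadjusted p under 0.05 was reached by 4 of them and by 7.37% of all genes. By DESeq2's Wald test 1 of them, Nkg7, was called. The effect in Gzma-high minus that in Gzma-low cells was 0.65 ± 0.16 for Prf1 (adjusted p 0.09), 0.27 ± 0.06 for Nkg7 (0.062), 0.64 ± 0.27 for Ifng (0.567) and 0.47 ± 0.20 for Klrb1b (0.564). Over 17 alternatives this difference passed in 5 for Prf1, in 5 for Nkg7 and in 2 for Klrb1b. Among them were Prf1 without Txnip-KO 3 (0.88, adjusted p 0.0018) or WT 2 (0.80, 0.0413), Nkg7 without Txnip-KO 3 (0.36, 0.000303), and Klrb1b without Txnip-KO 2 (0.75, 0.0201). Without the filter on low counts the adjusted p was 6.35e-07 for Prf1, 0.00123 for Nkg7 and 0.0196 for Klrb1b.

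Summed levels of marker lists in the NK gate are given as a description. Of 12 marker lists, 5 were higher and 1 lower in Txnip-KO samples without overlap between the groups. Of single genes tested in NK cells, 42% showed no overlap. That share was not taken for the subsets or the other gated types, so counts of lists there are descriptions too. Some list genes are also read in this report as genes of NK cells, such as Il18r1 in the progenitor list and Irf8 in the plasmacytoid dendritic list. The 7 innate lymphoid markers summed to between 348 and 448 CPM in Txnip-KO NK cells and between 175 and 203 CPM in WT NK cells. The 8 innate lymphoid progenitor markers summed to between 852 and 937 CPM in Txnip-KO and between 495 and 542 CPM in WT NK cells. Markers of plasmacytoid dendritic cells (8 genes) summed to between 414 and 543 CPM in Txnip-KO and between 244 and 344 CPM in WT NK cells. Irf8 alone had between 355 and 492 TMM-scaled CPM in Txnip-KO and between 205 and 265 in WT Gzma-high cells. Markers of other blood lineages were higher too, or lower in the case of monocytes and dendritic cells. The 10 granulocyte-monocyte progenitor and neutrophil markers summed to between 127 and 153 CPM in Txnip-KO and between 56.1 and 95.9 CPM in WT NK cells, and the 8 stem cell markers to between 19.2 and 32.1 CPM in Txnip-KO and between 6.71 and 12.2 CPM in WT NK cells. The 8 monocyte or dendritic markers summed to between 733 and 787 CPM in Txnip-KO and between 798 and 941 CPM in WT NK cells. All markers of these 6 lists were detected. Within the subsets, 5 lists did not overlap between the groups in Gzma-low cells, 4 higher and 1 lower in Txnip-KO samples. In Gzma-high cells 7 lists did not overlap, the 12 NK markers among them, with 5 higher and 2 lower in Txnip-KO samples. In Gzma-low cells the innate lymphoid markers summed to between 783 and 1024 CPM in Txnip-KO and between 407 and 554 CPM in WT samples, and in Gzma-high cells to between 128 and 158 CPM in Txnip-KO and between 105 and 125 CPM in WT samples. The part of these markers in the differences of the 10 genes was not tested.

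The genes that work with these receptors and granules were read from the same comparison in NK cells, where 26.3% of all genes were called. Of 17 receptor adaptors and signalling genes, 0 rose and 7 fell. Tyrobp, the DAP12 adaptor of activating receptors, had 2182, 2681 and 2526 TMM-scaled CPM in Txnip-KO NK cells, against 3531, 3891 and 4011 in WT NK cells (-0.63 ± 0.09, adjusted p 0.000592). Fcer1g, an adaptor of NKp46, fell by 0.43 on the log2 scale (adjusted p 0.00251), and Ptpn6, the SHP-1 phosphatase that acts below inhibitory receptors, by 1.08 (adjusted p 0.000897). Of 12 immunoglobulin-like and SLAM receptors tested, 0 rose and 6 fell, including Ly9 (-0.62 ± 0.09) and Cd2 (-0.53 ± 0.09). Of 13 other lectin-like receptors tested, 1 rose, Klrb1f (0.40 ± 0.09), and 3 fell, including Klra1 (-1.06 ± 0.11).

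The effector genes were split. Of 20 granule genes, 4 rose and 4 fell, with Lyst (0.66 ± 0.11) among those that rose, and Gzmm, encoding granzyme M (-1.67 ± 0.21), Coro1a, an actin regulator (-0.62 ± 0.09), and Cst7, a protease inhibitor of granules (-0.53 ± 0.09), among those that fell. Of 11 death ligands, cytokines and chemokines tested, 1 rose and 5 fell. The chemokine gene Xcl1 had 176, 266 and 165 TMM-scaled CPM in Txnip-KO NK cells, against 818, 835 and 745 in WT NK cells (-1.99 ± 0.15, adjusted p 7.14e-06). Ccl4 had 130.2, 190 and 141 in Txnip-KO NK cells, against 386, 336 and 193 in WT NK cells, where the highest Txnip-KO and the lowest WT sample lay side by side (-0.99 ± 0.20, adjusted p 0.00348).

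Among the regulators, genes of cytokine receptors and their signalling went both ways, with 4 of 17 higher and 2 lower. Il18r1 (0.52 ± 0.08) and Il18rap (0.53 ± 0.10), both chains of the interleukin 18 receptor, and Ifngr1 (0.86 ± 0.12), a chain of the interferon gamma receptor, rose, while Il21r fell (-1.18 ± 0.15). Of 17 transcription factors tested, 2 rose, Prdm1 (0.82 ± 0.15) and Irf8 (0.56 ± 0.13), and 1 fell, Klf2 (-0.34 ± 0.09, adjusted p 0.0152), whose call was lost without Txnip-KO 1 (-0.29, adjusted p 0.0536), WT 2 (-0.35, 0.0513) or WT 3 (-0.28, 0.0803). Of 19 maturation and traffic genes, 4 rose, including the marrow-retention receptor Cxcr4 (0.95 ± 0.15), and 7 fell, including the integrin gene Itgb7 (-0.75 ± 0.11). Of 10 genes of dividing cells, 0 rose and 5 fell, with Stmn1 at -1.07 ± 0.15 (adjusted p 0.000553). NK cells with a Mki67 or Top2a UMI made up 7.53 ± 2.40% in Txnip-KO and 9.56 ± 1.57% in WT samples (SD, n = 3 each).

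**Figure D5:**
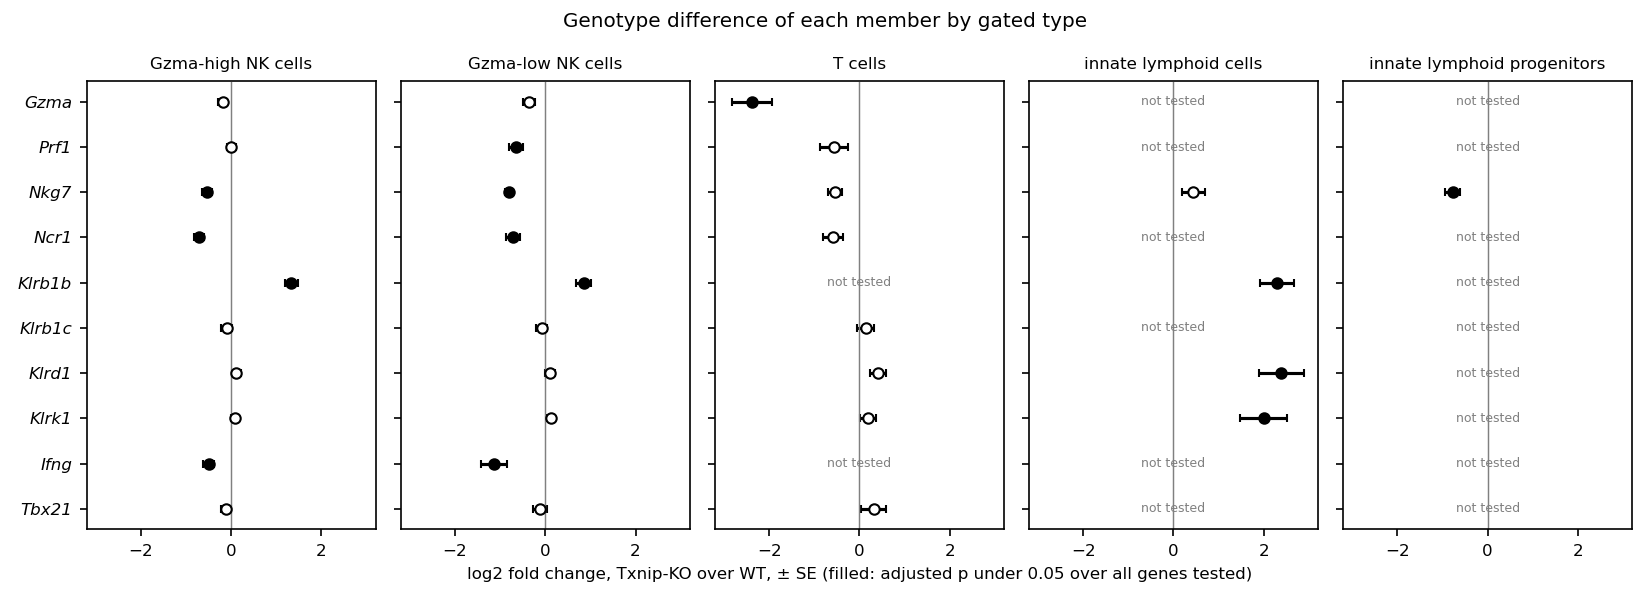
Log2 fold change of Txnip-KO over WT with its standard error (x axis) for the 10 genes (rows) in 5 gated types (panels). Filled points have an adjusted p under 0.05 over all genes tested. Klrb1b lies right of 0 in both NK subsets and in innate lymphoid cells, and Nkg7 lies left of 0 in both NK subsets and in innate lymphoid progenitors. In innate lymphoid cells Klrb1b, Klrd1 and Klrk1 entered the test through the group in which they were higher.

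In innate lymphoid cells Klrb1b, Klrd1, Klrk1 and Nkg7 passed the filter on low counts, which asks for a level of 21.4 CPM in at least 3 samples. Nkg7 reached it in all samples, whereas Klrb1b and Klrd1 reached it in 3 Txnip-KO and 0 WT samples and Klrk1 in 3 Txnip-KO samples and 1 WT sample. These 3 genes entered the test through the group in which they were higher, so their number, 3 called higher, is not set against the 3.52% of all genes called (1.72% higher and 1.8% lower). Klrb1b had 9, 25 and 19 UMIs in Txnip-KO samples, against 4, 4 and 8 UMIs in WT samples. After TMM scaling, each Txnip-KO sample lay above each WT sample, and the log2 fold change was 2.3 ± 0.37 (adjusted p 0.002). The filter level already separated the groups for Klrb1b, so this separation and the adjusted p-values of the 3 genes are given as a description. Klrd1 had 9, 14 and 16 UMIs in Txnip-KO samples, against 7, 3 and 1 UMIs in WT samples (2.39 ± 0.50, adjusted p 0.013). Klrk1 had 6, 29 and 25 UMIs in Txnip-KO samples, against 1, 16 and 5 UMIs in WT samples, with overlap between the groups (2.0 ± 0.52, adjusted p 0.0436). Of the genes that did not pass the filter, Ncr1 had 26 UMIs in Txnip-KO against 8 in WT samples, and Klrb1c 22 against 3. Fewer UMIs in Txnip-KO than in WT samples were counted for Gzma (2 against 15), Prf1 (5 against 8), Ifng (1 against 2) and Tbx21 (3 against 4).

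Klrb1b in innate lymphoid cells kept its call in the 12 of 14 alternatives that gave an adjusted p. Apart from the setting without a filter, these apply the same filter rule, so they do not test the entry of Klrb1b through Txnip-KO samples. DESeq2's Wald test gave Klrb1b no adjusted p (2.32, unadjusted p 5.1e-05), nor one to Klrd1 and Klrk1. With 1 marker more in the gate Klrb1b and Klrd1 did not pass the filter. The call of Klrd1 was lost without Txnip-KO 1 (2.42, adjusted p 0.0607), WT 2 (2.34, 0.0608) or WT 3 (1.82, 0.0842) and without doublet removal (1.22, 0.16). That of Klrk1 was lost without Txnip-KO 2 (1.78, adjusted p 0.139), Txnip-KO 3 (1.83, 0.089), WT 1 (1.51, 0.155) or WT 3 (1.65, 0.182), without doublet removal (1.66, 0.103) and with 1 marker more in the gate (0.63, 0.696). Of the 12 marker lists, 5 were higher and 1 lower in Txnip-KO innate lymphoid cells without overlap, a count given as a description. The 12 NK markers, 10 of them detected and Eomes and Klra4 at 0, summed to between 201 and 322 CPM in Txnip-KO and between 112 and 150 CPM in WT innate lymphoid cells. The gate's own 7 markers summed to between 5144 and 6176 CPM in Txnip-KO and between 3669 and 4154 CPM in WT samples, and the 8 progenitor markers to between 3431 and 4279 CPM in Txnip-KO and between 2166 and 2319 CPM in WT samples. Outside the lymphoid lists, the 8 monocyte or dendritic markers summed to between 497 and 775 CPM in Txnip-KO and between 293 and 423 CPM in WT samples, and the 10 granulocyte-monocyte progenitor and neutrophil markers to between 67.2 and 168 CPM in Txnip-KO and between 38.8 and 66.4 CPM in WT samples. The 8 basophil or mast cell markers summed to between 45.6 and 94.0 CPM in Txnip-KO and between 147 and 204 CPM in WT samples. The part of these markers in the results was not tested. Nkg7 did not pass (0.44 ± 0.25, adjusted p 0.363).

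In innate lymphoid progenitors Nkg7 was the 1 gene of the 10 that passed the filter on low counts, and it fell, where 3.13% of all genes were called, 1.82% higher and 1.32% lower. It had 349, 328 and 502 TMM-scaled CPM in Txnip-KO samples, against 675, 660 and 668 in WT samples. The groups did not overlap (-0.77 ± 0.17, adjusted p 0.0166). The call was lost without Txnip-KO 2 (-0.66, adjusted p 0.0973), WT 1 (-0.78, 0.0611) or WT 3 (-0.80, 0.0769), without doublet removal (-0.68, 0.0831) and with 1 marker more in the gate (-0.64, 0.063). Of the 12 marker lists, 7 were higher in Txnip-KO progenitors without overlap and 0 lower, again as a description. The 8 progenitor markers summed to between 5528 and 6999 CPM in Txnip-KO and between 5207 and 5327 CPM in WT samples, and the 12 NK markers, with Klri2, Klra4, Klra8 and Klrc2 at 0, to between 452 and 651 CPM in Txnip-KO and between 308 and 444 CPM in WT samples. The part of these markers in the fall of Nkg7 was not tested.

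In T cells 8 of the 10 genes were tested and 1, Gzma, was called, lower in Txnip-KO samples, where 2.47% of all genes were called, 1.39% higher and 1.07% lower. Gzma had 63, 16 and 12 UMIs in Txnip-KO samples, from 4, 7 and 3 cells, against 72, 50 and 158 UMIs from 12, 8 and 11 cells in WT samples. Scaled for depth, that was 112, 43.0 and 44.2 TMM-scaled CPM in Txnip-KO T cells, against 256, 127 and 863 in WT T cells. These scaled values did not overlap between the groups, and WT 3 carried most of the WT UMIs. The log2 fold change was -2.38 ± 0.45 (adjusted p 0.00329), -1.37 without WT 3 (adjusted p 0.0257) and -2.63 with an adjusted p of 0.145 by DESeq2's Wald test. Cells at or above the NK split numbered 2 of 236 in Txnip-KO and 14 of 158 in WT samples. Nkg7 had 1166, 1337 and 1102 TMM-scaled CPM in Txnip-KO T cells, against 1281, 2265 and 1689 in WT T cells, and did not pass (-0.54 ± 0.15, adjusted p 0.0569). It did pass in 5 of 14 alternatives, among them without WT 1 (-0.75, adjusted p 0.00092) and with 1 marker more in the gate (-0.65, adjusted p 0.00395). T cells with under 4 NK markers numbered 12 of 98, 8 of 79 and 6 of 59 in Txnip-KO samples. In WT samples they numbered 20 of 51, 4 of 75 and 10 of 32, and their part in these values was not tested. Klrd1 did not pass (0.41 ± 0.18, adjusted p 0.243) except without WT 2 (0.66, adjusted p 0.0223). The 6 T cell markers, all detected, summed to between 3987 and 4543 CPM in Txnip-KO and between 5783 and 6199 CPM in WT T cells, and the 12 NK markers to between 3262 and 3334 CPM in Txnip-KO and between 2826 and 3757 CPM in WT T cells. The 7 innate lymphoid markers summed to between 678 and 894 CPM in Txnip-KO and between 273 and 535 CPM in WT T cells, and the 8 progenitor markers to between 1078 and 1289 CPM in Txnip-KO and between 506 and 975 CPM in WT T cells. The 8 plasmacytoid dendritic markers, with Cd300c and Klk1 at 0, summed to between 84.3 and 89.4 CPM in Txnip-KO and between 102 and 725 CPM in WT T cells. The part of these markers in the results was not tested. In Txnip-KO 1, 58 of the 63 Gzma UMIs came from 1 cell.

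Summed over all kept cells, where 41% of all genes were called, 21.6% higher and 19.4% lower, 3 of the 10 genes were called. Klrb1b rose (1.41 ± 0.25, adjusted p 0.00399), and Ncr1 (-0.58 ± 0.14, adjusted p 0.0134) and Nkg7 (-0.33 ± 0.10, adjusted p 0.0273) fell. Ncr1 was no longer called without WT 3 (-0.52, adjusted p 0.0548), nor Nkg7 without Txnip-KO 2 (-0.32, adjusted p 0.0524), WT 1 (-0.31, 0.0806) or WT 3 (-0.27, 0.103). These sums depend on the share of NK cells, which was 19.1 ± 4.65% of kept cells in Txnip-KO and 16.3 ± 2.68% in WT samples (SD, n = 3 each).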

How the data were processed

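The deposited files hold raw UMI counts per gene and cell barcode, as the authors left them. The submitters' processing notes name Cell Ranger 6.1.1, CASAVA 1.8 and Seurat 2.3.4. Per the labels' protocols, marrow was passed through a 70 µm strainer, and a Chromium 3' kit, version 3.1, gave the libraries. The genome build behind the counts, not given in the sources used here, was not needed for the tests. Cells were kept with at least 500 genes, at least 1000 UMIs and at most 10% mitochondrial UMIs, which left 41513 of 48277 barcodes after the cells with the highest Scrublet doublet scores were removed at 0.8% per 1000 barcodes. The 10 genes, the gene lists and the gates were chosen with earlier results of these data known, and the gate thresholds and the Gzma split after marker counts and the Gzma distribution were seen. Counts were summed per sample and gated type and tested with edgeR 4.0.16 (quasi-likelihood, TMM, filterByExpr), adjusted after Benjamini and Hochberg over all genes tested and called at 0.05. Gzma-high against Gzma-low and the difference of genotype effects carried the sample as a block. CPM are UMIs scaled to a fixed total of a type's UMIs in a sample, and TMM-scaled CPM are on the scale of the fit. From the gene lists, the text names some of the called genes with the smallest p in a comparison. Others that ranked as high or higher, such as Socs1 between the NK subsets, are not named. In simulated counts, changes were placed only in genes above the median level. Of log2 changes of 1, 100% were recovered in NK cells (10299 genes, 14 false calls) and 83% in innate lymphoid progenitors (3573 genes, 12 false calls). Changes smaller than 1, such as the falls of Ncr1, Ifng, Nkg7 and Gzma in NK cells, were not simulated. Alternatives were DESeq2 1.42.0, other scalings, no filter, a replicate block, each sample left out, other cell filters, gates and Gzma thresholds. Intervals and SDs cover these samples only, and samples of a group may be technical repeats. Of the genes that the rule for likeness of profile names, 1 is not reported here.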

Additional observations from a re-analysis of the deposited data

Results flagged for a closer look

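For 9 genes of the lists, none of them among the 10 genes, the effect of genotype differed between Gzma-high and Gzma-low NK cells (edgeR, sample block, adjusted over all genes). Among effector genes, Xcl1 fell by 2.46 on the log2 scale in Gzma-high cells and by 1.55 in Gzma-low cells, a difference of -0.88 (adjusted p 3.92e-05). Gzmb had a log2 fold change of 0.63 in Gzma-high and -0.61 in Gzma-low cells, a difference of 1.23 (adjusted p 0.0398). The interferon regulatory factor gene Irf8 had 0.87 in Gzma-high and -0.47 in Gzma-low cells, a difference of 1.32 (adjusted p 3.66e-05).

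Among receptors and surface genes, Klra3 had a difference of 0.77 (adjusted p 0.00795), with -0.35 in Gzma-high and -1.14 in Gzma-low cells. Ly6c2 had a difference of 1.5 (adjusted p 0.0218) and Ccr2 one of -0.39 (adjusted p 0.0221). Slamf6 had a difference of -0.85 (adjusted p 0.0417), Thy1 one of -0.63 (adjusted p 0.0398) and Emb one of -0.66 (adjusted p 0.000209). Without doublet removal none of the 9 was called. Emb, Irf8 and Xcl1 kept the call with each sample left out in turn, whereas Klra3 lost it without WT 2 (0.66, adjusted p 0.0666), Ly6c2 in 2 and Ccr2, Gzmb, Slamf6 and Thy1 in 4 of the 6 leave-outs each. Groups of 3 samples were not tested for outlying samples.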

How the results depend on the processing

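Of the values read under other settings, 3262 of single genes kept direction and side of the threshold, 193 lost and 37 gained a call, and 27 changed sign. DESeq2's Wald test gave 729 genes in Gzma-low NK cells, 117 in innate lymphoid cells, 49 in progenitors, 55 in T cells and 1212 between the NK subsets. Without the filter on low counts there were 402 in innate lymphoid cells, 223 in progenitors, 191 in T cells and 107 for the difference of genotype effects. Without doublet removal there were 35 in innate lymphoid cells, 38 in progenitors, 4551 between the NK subsets and 0 for the difference of effects, and the Gzma-low cell number gave 0.72 and no longer passed. With 1 marker more there were 108 in innate lymphoid cells and 61 in progenitors, and with the Gzma threshold doubled 53 for the difference of effects. The causes were not tested.

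With each sample left out in turn, counts ran from 1483 to 2902 in NK cells, 465 to 1366 in Gzma-low and 1555 to 2703 in Gzma-high NK cells, 55 to 236 in innate lymphoid cells, 17 to 107 in progenitors, 55 to 173 in T cells, 3609 to 6148 over all kept cells, 1883 to 2115 between the NK subsets and 9 to 61 for the difference of effects. Cell numbers ran from 0.66 to 0.95 for Gzma-low, -0.15 to 0.26 for Gzma-high NK cells (-0.053 without WT 2) and -0.18 to 0.072 for progenitors, and the share of Gzma-high cells from -9.93 to -6.71 points.

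Sign changes concerned values that did not pass. With total-UMI scaling Klrb1c was 0.016 in NK, 0.062 in Gzma-low and 0.059 in Gzma-high cells, and Tbx21 was 0.0042, 0.025 and 0.045. With each sample left out, Klrb1c ran from -0.27 to 0.0033 in NK, -0.17 to 0.056 in Gzma-low, -0.22 to 0.068 in Gzma-high and -0.089 to 0.35 in T cells, Klrd1 from -0.086 to 0.090 in NK and -0.029 to 0.18 in Gzma-low cells, and Prf1 from -0.098 to 0.11 in Gzma-high cells. Klrd1 in NK cells was -0.019 without doublet removal. Prf1 in Gzma-high cells was -0.0072 with DESeq2 size factors and with its Wald test, -0.014 without a filter, -0.0063 with the replicate block, -0.0084 with 1 marker more, -0.053 with stricter cell filters, -0.030 without cells with Mki67 or Top2a and -0.044 with the threshold halved. Ncr1 between the subsets was -0.0094 without cells with Mki67 or Top2a and -0.0090 with the threshold halved.

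Replicate numbers were not shown to pair samples: deviations of same-numbered samples correlated between -0.139 and 0.108. The replicate block gave 1126 genes in Gzma-low NK cells, 2491 in Gzma-high NK cells and 115 in innate lymphoid cells. Few UMIs limit the innate lymphoid and T cell values.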
